A study of Homo sapiens with 21 samples.

Results

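The cytosolic ribosomal protein genes encode the protein part of the ribosome in the cytoplasm, where messenger RNA is translated. They were taken here as all genes with the usual RPL and RPS symbols, the stalk genes RPLP0, RPLP1 and RPLP2, and RPSA, with pseudogenes left out. FAU, which encodes a small subunit protein under another kind of symbol, was not among them. This gave 85 genes among the 60651 human genes counted: 43 of the large subunit, 31 of the small subunit, the 3 stalk genes and 8 paralogs whose symbols end in L, AL or L1. Counts were high enough to be tested for 83 of the 85, and RPL10L and RPL3L were too low.

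RNA-seq covered 21 subcutaneous tumors of A549-Luc2 cells, a luciferase-marked subline of a human lung adenocarcinoma line, grown in the hind flank of female athymic nude mice aged 6 to 8 weeks. There were 7 tumors each from the control group, from mice given the oxysterol derivative Oxy186 and from mice given the related derivative Oxy210. Both compounds were given daily by oral gavage at 50 mg/kg, and all groups received the same vehicle of 3% DMSO, 7% ethanol, 5% PEG400 and 85% corn oil. All tumors came from 1 cell line in hosts without T cells, and only reads of the human cells were counted.

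Each human ribosome carries a single copy of nearly all of these proteins, and the genes are among the most actively transcribed in any growing cell. Most of their messages begin with a C followed by a run of pyrimidines, the terminal oligopyrimidine (TOP) start, through which mTOR signaling controls their translation. MYC raises their transcription. Several of the genes host small nucleolar RNA genes in their introns, which was the case for 28 of the 85 here. The messages are long-lived and abundant, and some of them, among them RPS18, RPLP0 and RPL13A, are widely used as references in RT-qPCR.

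The start sequences show what most members share in their promoters and how some members of the results below differ. RefSeq promoter entries (GRCh38.p14, 250 bases before to 50 bases after each annotated start) matched 68 of the 85 genes. Of these, 47 had at least 1 annotated start at a C followed by 4 pyrimidines (69.1%), against 5.14% of the 27305 genes in the table. The stretches below run from 15 bases before the start to 15 bases from it on, with the first 5 transcribed bases in capitals. RPLP0, RPS18, RPL13A, RPS6, RPLP1 and RPL26 begin with TOP letters, RPL11 and RPL10 do so at 1 of their annotated starts, which is the one shown, and the annotated starts of RPS28, RPS29 and RPL36AL do not.
RPLP0: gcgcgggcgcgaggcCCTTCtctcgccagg
RPS18: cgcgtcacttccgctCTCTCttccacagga
RPL13A: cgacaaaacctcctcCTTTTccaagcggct
RPS6: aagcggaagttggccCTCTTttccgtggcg
RPLP1: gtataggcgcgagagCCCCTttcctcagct
RPL26: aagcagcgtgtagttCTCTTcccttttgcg
RPL11: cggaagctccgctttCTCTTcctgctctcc
RPL10: caggcggaggagcgcCTCTTtcccttcggt
RPS28: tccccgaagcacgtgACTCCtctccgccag
RPS29: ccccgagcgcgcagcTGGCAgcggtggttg
RPL36AL: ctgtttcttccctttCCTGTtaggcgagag
The stretch of RPS18 lies at chr6:33272060-33272089 on the plus strand, that of RPLP0 at chr12:120201097-120201126 on the minus strand, that of RPS28 at chr19:8321481-8321510 on the plus strand and that of RPS29 at chr14:49598696-49598725 on the minus strand. A missing TOP start says only that these letters are not at the annotated base.

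Other letters were searched on both strands over the 300 bases of each entry. The ETS-type motif CCGGAAG was present for 35.3% of the 68 genes and 12.2% of all genes, GATGGC, the core of the YY1 motif, for 33.8% and 15.4%, GGGCGG, the core of the SP1 motif, for 58.8% and 48.3%, and the TATA motif TATAAA for 10.3% and 14%. These shares describe sequence alone, and no binding was measured.

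Each tumor had between 13787493 and 17865119 counts in all, and these totals overlapped between the groups. The tumors had the keratins, aldo-keto reductases and ALDH1A1 that mark A549 cells, and no count on CDKN2A, which this line has lost. Of the endothelial markers VWF and KDR had at most 2 counts, while PECAM1 had 14 to 58 and CDH5 2 to 43. Of the leukocyte markers PTPRC had at most 8 counts, while ITGAM had 57 to 133 and CD14 6 to 60. The red cell marker HBB had at most 9 counts, and the fibroblast genes LUM (566 to 3348 counts) and COL1A1 (256 to 1031) were present and COL1A2 had at most 1 count. Nothing in the labels says that tumors were handled in batches. The Oxy186-treated tumors r1-r4, on which the study based its differential expression, had the lowest mean GC slope of the groups, with the slopes of r3 and r4 the lowest of all tumors. The GC slopes, the change in log2 CPM per 10 percentage points of exon GC, ran from -0.51 to -0.18 in r1-r4, against -0.15 to 0.40 in the control group, 0.079 to 0.49 in Oxy186-treated tumors r5-r7 and -0.33 to 0.26 in the Oxy210 group. The groups are small and the tumors are the replicates, so each p-value weighs a difference between groups against the spread between tumors.

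Together the 85 genes took 6.41% to 11.1% of the human counts of a tumor. In the control group the share was 6.41% at the lowest, 8.28% at the median and 10.7% at the highest, with a mean of 8.44% ± 1.5 (SD, n = 7). In the Oxy186 group it was 6.63%, 9.12% and 11.1%, with a mean of 8.65% ± 1.61 (SD, n = 7), and in the Oxy210 group 6.69%, 7.10% and 7.66%, with a mean of 7.15% ± 0.338 (SD, n = 7). The ranges of all groups overlapped. The Oxy210-treated tumors lay within a band about as narrow as 1 percentage point at the low end of the range, whereas control and Oxy186-treated tumors spread over more than 4. The highest shares were in Oxy186-treated tumor r3 and in control tumors r4 (10.7%) and r1 (10.0%), and the lowest in control tumor r6, so high and low tumors occurred in the control group itself. The share is one of human counts alone. In bulk tumors, a smaller part of the human cells making these messages and less message per cell cannot be told apart.

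**Figure D1:**
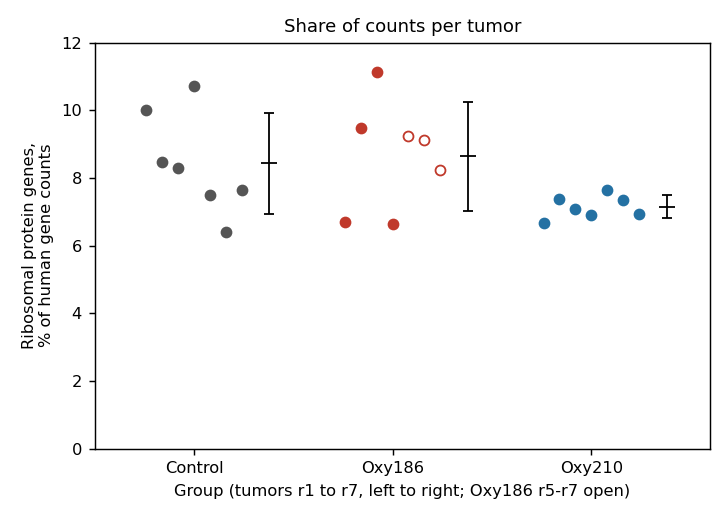
Percent of all human gene counts that fell on the 85 cytosolic ribosomal protein genes, 1 point per tumor, by group; black bars give the mean and SD (n = 7), and open points are Oxy186-treated tumors r5-r7. The Oxy210-treated tumors sit between 6.69% and 7.66%, while control and Oxy186-treated tumors run from 6.41% to 11.1%.

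Small subunit genes took 0.583 to 0.642 times the counts of large subunit genes in every tumor, so the ratio of the subunits moved far less than the total. Ribosomal protein pseudogenes, 1296 in the table, took 0.0341% to 0.0591% of counts. Reads that align equally well to a gene and to such a copy were not counted, which makes the level of each gene with close copies uncertain, and the loss was not measured here.

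Levels were compared between genes as CPM per kilobase of the main annotated transcript, averaged over the 21 tumors. The highest were RPLP0, the base of the stalk that recruits elongation factors (3770 ± 1010, SD, n = 21), RPL13A, a large subunit protein that also acts in the silencing of inflammatory messages (3741 ± 982), RPS16, a small subunit protein near the decoding site (3685 ± 931), RPS27 (3038 ± 894) and RPS20 (2520 ± 1089). The first 3 do not differ beyond their spread. RPS18 (1817 ± 439), RPSA, the laminin receptor precursor and small subunit protein (1470 ± 321), RPLP1 (1469 ± 517), RPS6, the substrate of the ribosomal S6 kinases (1592 ± 411), RPL5 (1020 ± 210) and RPL11 (739 ± 326) were intermediate.

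The lowest levels were those of RPL10L, a copy of RPL10 used in the testis (2 counts in all, in 1 control tumor), RPL3L, the muscle form of RPL3 (0 to 13 counts per tumor), RPS10 (6.18 ± 1.61), RPL17 (16.1 ± 3.51) and RPL36A (16.3 ± 4.07). RPS10 and RPL17 share 31.5% and 32.9% of their exon bases with another gene on the same strand, so their counts are uncertain. Over 10% of exon bases were shared in 8 members, among them RPL26 (14.5%) and RPL13A (14.1%). With the union of all exons as the length, the order of the 85 genes had a Spearman's rho of 0.815 with the order above, as a description across genes. The named order depends on the length used: by union exon length RPS20 was at 193 CPM per kilobase, below RPS18 at 544.

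**Figure D2:**
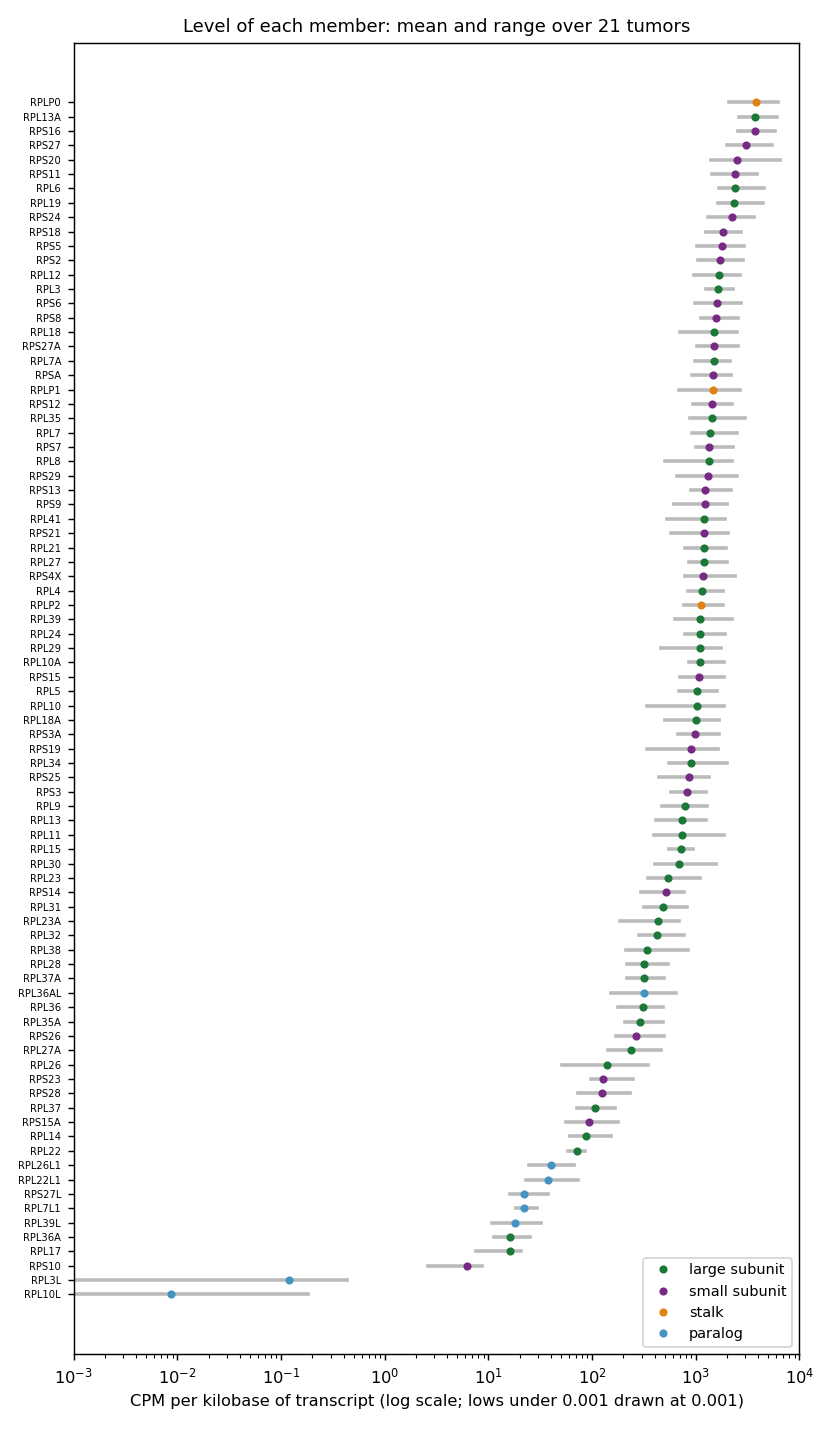
Level of the 85 genes (1 is not shown) as CPM per kilobase of its main transcript, on a log axis; points are means and gray bars the range over the 21 tumors (a low of 0 is drawn at the left edge), with colors for large subunit, small subunit, stalk and paralog genes. RPLP0, RPL13A and RPS16 lead at 3685 to 3770, and the paralogs all lie in the lower part.

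By the length of the main transcript, the paralogs had lower mean levels than their counterparts, except for RPL36AL. RPL36AL, which encodes almost the same protein as RPL36A, was at 317 ± 111 CPM per kilobase and RPL36A at 16.3. RPL22L1 was at 37.4 ± 13.3 and RPL22, whose loss is a known event in cancers, at 71.9 ± 7.61. By union exon length the order of this pair turned, with RPL22L1 at 34.7 and RPL22 at 31.8. RPL26L1 was at 40.4 ± 9.83 and RPL26 at 139 ± 91.3. RPL7L1, which acts in the nucleolus on the maturing large subunit, was at 22.0 ± 2.69 and RPL7 at 1366 ± 344. RPS27L was at 22.0 ± 4.85 and RPS27 at 3038. RPL39L, a form of the tunnel protein RPL39 best known from male germ cells, was at 18.0 ± 5.85 and RPL39 at 1106 ± 361. RPL3 was at 1649 ± 348 and RPL10 at 1017 ± 334.

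Most of the family varied together from tumor to tumor. The median of Pearson's r over all pairs of the 83 tested members was 0.70 across the 21 tumors, beside -0.0015 for pairs among every 10th gene, as a description in which all genes share the same libraries and scaling. The first principal component of the members held 62.2% of their variance and the second 20.8%. RPL32 and RPL27 followed the median of the other members most closely (r = 0.97 each), and RPS18 (r = 0.97) and RPS16 (r = 0.96) came next. RPL36A (-0.049), RPL17 (-0.040), RPS10 (0.039) and RPL7L1 (0.097) did not follow it; the first 3 of these are also the lowest of the tested genes.

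**Figure D3:**
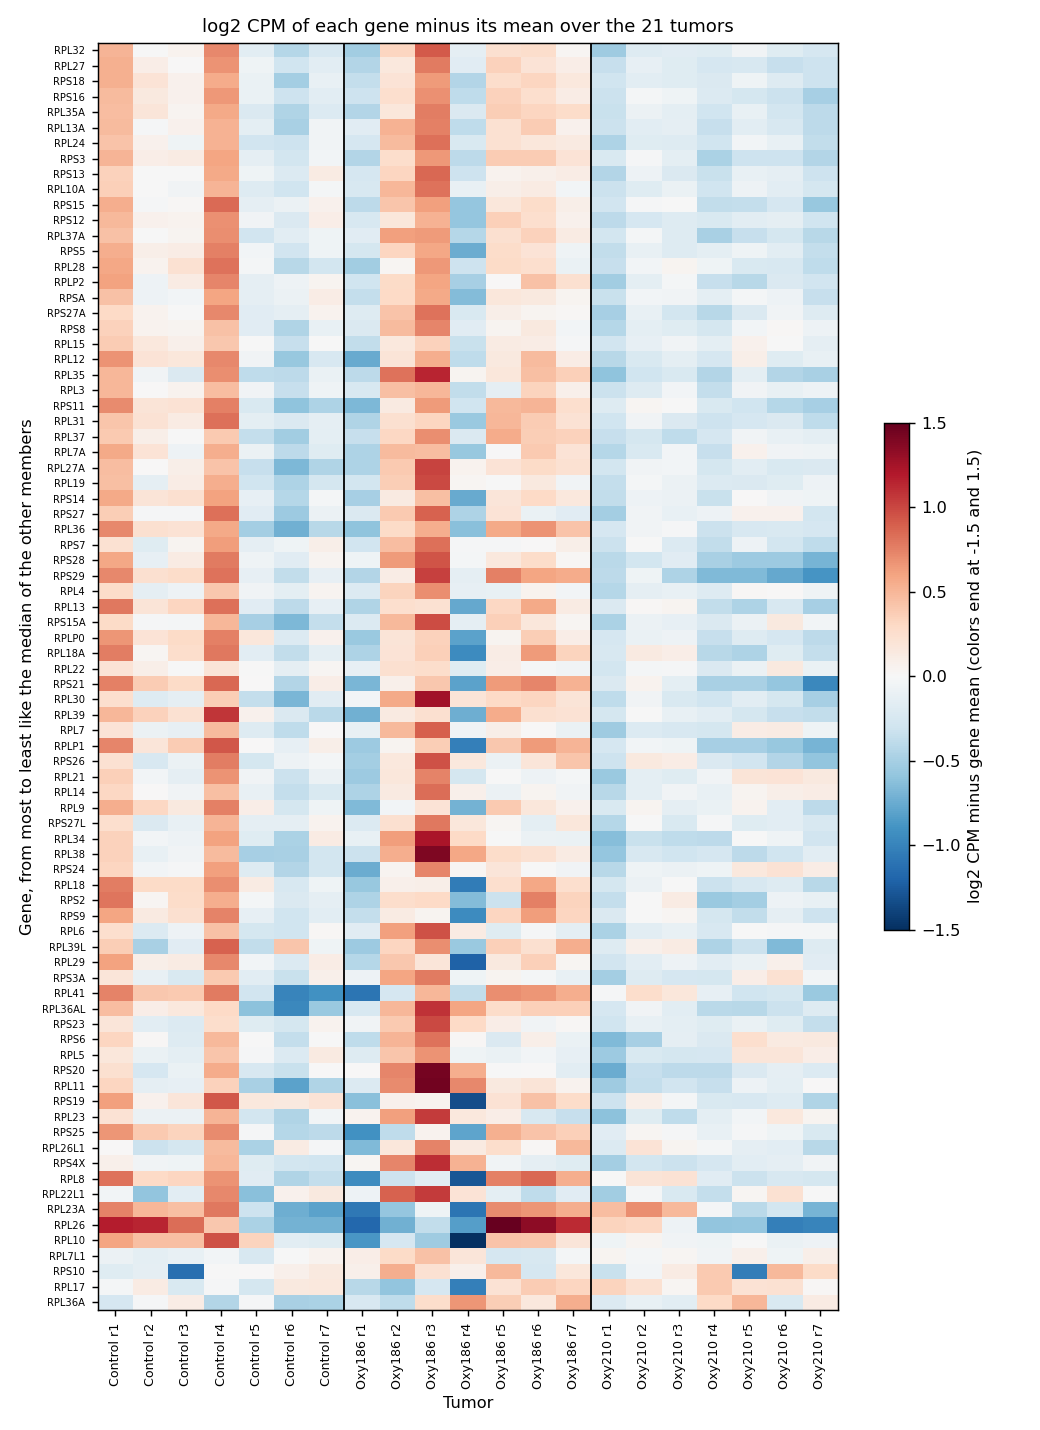
Each row is 1 of the 83 tested genes (1 is not shown) and each column 1 tumor (control, Oxy186 and Oxy210, separated by lines); color gives log2 CPM minus the gene's mean over the 21 tumors and saturates at the ends of the scale. Rows are ordered from the gene most like the median of the others to the least, and columns such as Oxy186 r3 and control r4 are high, and control r6 and Oxy186 r1 low, over most of the rows.

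The members differed in how much they varied. The SD of log2 CPM over the 21 tumors had a median of 0.37 for members, 0.37 for all 16990 genes and 0.31 for the 12337 genes with a mean log2 CPM at or above that of the lowest tested member other than the paralogs. It was largest for RPL26 (0.89), a protein at the exit of the peptide tunnel, RPL23A (0.65), which docks nascent chains and the signal recognition particle there, and RPL41 (0.58), the shortest ribosomal protein. It was smallest for RPL22 (0.15), RPL7L1 (0.17) and RPL15 (0.23). RPS18, RPLP0 and RPL13A, the genes used as references, had SDs of 0.33, 0.38 and 0.35, near the median of the family.

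Oxy210-treated and control tumors were compared to ask whether Oxy210 changed these genes. No member passed the test, and the members with the smallest p-values all had lower levels in Oxy210-treated tumors. Of the 83 members, 79 had a log2 fold change below 0 and 4 above, beside 48.7% and 51.3% of all 16396 genes tested. The median was -0.28 for members and 0.0086 for all genes. At an unadjusted p under 0.05, 35 members were lower (42.2%) and 0 were higher, while 8.12% of all genes were lower and 5.72% higher. Members varied together from tumor to tumor (median r of 0.70 over pairs), so they do not count as independent genes. After Benjamini-Hochberg adjustment in edgeR's quasi-likelihood test, 0 of 83 members and 0 of all genes (0%) passed the threshold of 0.05, and the smallest adjusted p was 0.204. Without overlap between the groups were 0 members and 0.165% of all genes. DESeq2 gave 6 members (7.23%), beside 0.561% of all genes, and all 6 were lower: RPS29, RPLP1, RPS28, RPLP0, RPS19 and RPS21. Over the alternatives the adjusted p of RPS29 ranged from 0.0142 to 0.532.

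RPS29, a zinc-binding protein of the small subunit head (chromosome 14, 49570984 to 49599164, minus strand, GRCh38), had a log2 CPM of 8.12 at the lowest, 8.73 at the median and 9.31 at the highest in the control group, and of 7.61, 7.83 and 8.43 in the Oxy210 group. The Oxy210-treated tumors were low, and the top 1 of them lay within the control range. Its fold change on the log2 scale was -0.77 (standard error 0.17, adjusted p = 0.204 in edgeR). RPS28, a small subunit protein at the exit of the message channel (chromosome 19, 8321158 to 8323340), was at 7.15, 7.36 and 8.10 in the control group and at 6.62, 6.83 and 7.15 in the Oxy210 group. Its groups touched at the edge only. Its fold change on the log2 scale was -0.62 (standard error 0.14, adjusted p = 0.204 in edgeR).

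The 3 stalk genes had values below 0, and none passed edgeR's test, while DESeq2 called RPLP1 and RPLP0. RPLP1, which pairs with RPLP2 in the stalk (chromosome 15, 69452814 to 69456205), was at 10.54, 10.85 and 11.60 in the control group and 9.97, 10.17 and 10.62 in the Oxy210 group, which put its fold change at -0.69 on the log2 scale (standard error 0.16, adjusted p = 0.204 in edgeR). On the same scale it was -0.51 for RPLP0 (standard error 0.13, adjusted p = 0.212) and -0.46 for RPLP2 (standard error 0.14, adjusted p = 0.25), both from edgeR. In all 3 genes the groups overlapped.

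Of the other genes used as references, RPS18 stood at -0.31 on the log2 scale (adjusted p = 0.332) and RPL13A of -0.31 (adjusted p = 0.326) in edgeR. RPS18 was at 9.41, 9.99 and 10.48 in the control group and at 9.61, 9.74 and 9.86 in the Oxy210 group. The Oxy210-treated tumors lay inside the control range, in its lower part.

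Of the members with known duties outside the ribosome, RPL5 (-0.12), RPL11 (-0.073), RPS6 (-0.14), RPS4X (-0.20) and RPSA (-0.26) had values below 0 with an unadjusted p over 0.05. RPL10, which joins the large subunit late in its maturation, was at 10.83, 11.47 and 11.97 in the control group and at 10.92, 10.95 and 11.06 in the Oxy210 group (log2 fold change -0.42, adjusted p = 0.279 in edgeR). The Oxy210-treated tumors were almost level with each other for this gene. The 4 members above 0 were RPL36A (0.29), RPL17 (0.24), RPS10 (0.21) and RPL7L1 (0.11), with adjusted p-values from 0.375 to 0.682 in edgeR.

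Members with a TOP start had a median log2 fold change of -0.31 (47 genes) and those without one of -0.22 (20 genes), and the ranges overlapped. The median was -0.34 in the 41 members of higher exon GC and -0.19 in the other 42. The ribosomal protein pseudogenes, whose reads can come from close copies, had a median of -0.35 over the 64 tested. The 8 fibroblast markers summed to 112 to 234 CPM in control tumors and 77.4 to 157 CPM in Oxy210-treated tumors. These ranges overlapped. LUM and COL1A1 made up most of the sum, with medians of 93.6 and 39.0 CPM over all tumors. Each other marker had a median of at most 1.625 CPM, with COL1A2 at 0 or 1 counts. Of the 3 markers with enough counts to test, 2 were lower at an unadjusted p under 0.05 in edgeR and 1 was above 0. Their log2 fold changes ran from -1.27 to 0.125, and none was called. The part of these markers in the result was not tested.

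**Figure D4:**
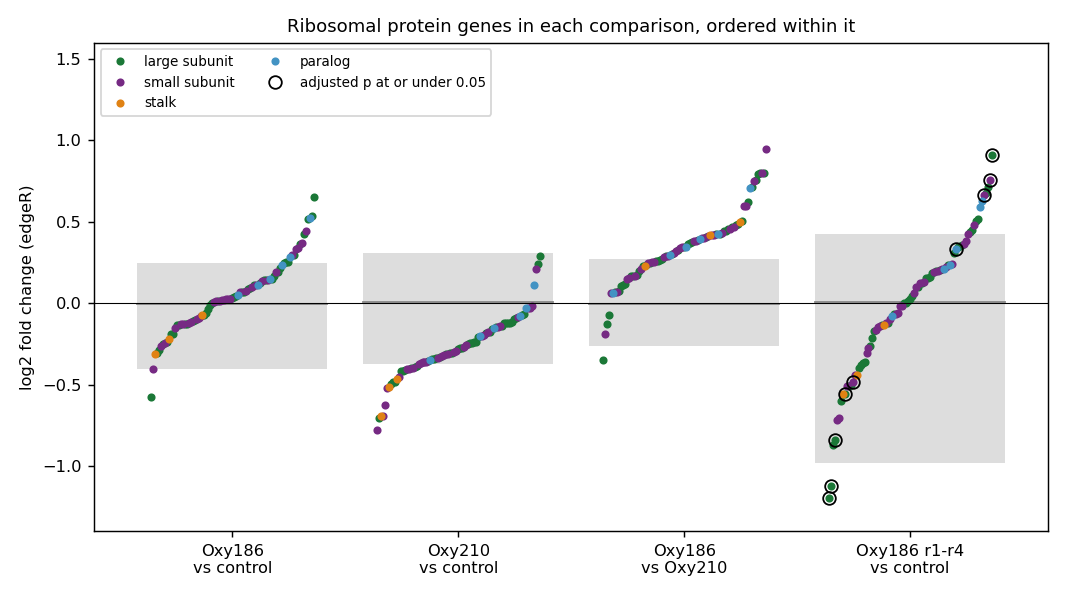
Log2 fold changes (edgeR) of the 83 tested genes in each comparison, ordered within it; colors mark large subunit, small subunit, stalk and paralog genes, black rings an adjusted p at or under 0.05, gray boxes the 10th to 90th percentile of all genes tested and gray lines their median. In the comparison of Oxy210 with control 79 of 83 points lie below 0, in that of Oxy186 with Oxy210 79 lie above 0, and rings appear only for Oxy186 r1-r4, on 9 genes.

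Oxy186-treated and Oxy210-treated tumors were compared to ask whether the related compounds, at the same dose, differ. They form the only pair of compounds compared. Nearly all members had higher mean levels in Oxy186-treated tumors, with none past the adjusted threshold. Of 83 members, 79 were above 0 and 4 below, beside 48.5% and 51.5% of all 16361 genes, and the median log2 difference was 0.34 for members and -0.0068 for all genes. At an unadjusted p under 0.05, 39 members were higher (47%) and 0 lower, while 3.14% of all genes were higher and 0.917% lower (4.06% in either direction). Here too the members do not count as independent genes. No gene (0%) passed Benjamini-Hochberg adjustment in edgeR, and the smallest adjusted p of a member was 0.709. DESeq2, which left all but 1770 genes without an adjusted p here, gave 7 of the 74 members that had one (9.46%), beside 0.791% of those genes. All 7 were higher: RPS28, RPS29, RPL36AL, RPL35, RPL30, RPL38 and RPS20. This comparison shares the Oxy210-treated tumors with the one above, so the 2 results are not independent.

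RPS28 was at 7.25, 7.48 and 8.27 in the Oxy186 group, all above the 7.15 of the highest Oxy210-treated tumor, a difference of 0.75 on the log2 scale (95% interval 0.42 to 1.08, adjusted p = 0.709 in edgeR). RPL30, a large subunit protein (8.31, 8.65 and 9.61 against 7.85, 8.09 and 8.29), and RPS23, which lies at the decoding site (8.60, 8.76 and 9.65 against 8.31, 8.48 and 8.56), did not overlap either. Without overlap were thus 3 of the 83 members and 0.0672% of all genes. RPS29 differed by 0.95 (95% interval 0.53 to 1.37, adjusted p = 0.709), and RPL36AL by 0.71 (95% interval 0.39 to 1.03, adjusted p = 0.741), both with overlap.

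Among the stalk genes the difference was 0.50 for RPLP1, 0.42 for RPLP2 and 0.23 for RPLP0. It was 0.34 for RPS18 and 0.48 for RPL13A. RPL10 (-0.13, 95% interval -0.62 to 0.36), RPL17 (-0.35, -0.77 to 0.074) and RPL23A (-0.072, -0.71 to 0.56) were among the members below 0, and their intervals hold differences in both directions. A missed threshold does not show that the compounds act alike on them.

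All 7 Oxy186-treated tumors were compared with the control group to ask whether Oxy186 changed these genes. The members lay on both sides of 0, with no clear shift of the family. Of 83 members, 52 were above 0 and 31 below, beside 48.9% and 51.1% of all 16291 genes. The median log2 fold change was 0.036 for members and -0.0067 for all genes. No member or gene (0%) passed Benjamini-Hochberg adjustment in edgeR, where the smallest adjusted p was 0.862, and limma voom and DESeq2 gave 0 members too. At an unadjusted p under 0.05, 5 members were higher and 1 was lower, beside 1.44% and 2.36% of all genes (3.79% in either direction). Without overlap were 0 members and 0.0123% of all genes.

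The higher ones were RPL30 (0.54), RPL11 (0.65), RPL36A (0.43), RPL36AL (0.52) and RPL38 (0.52), and the lower one was RPL10 (-0.57), each with an adjusted p of 0.862 in edgeR. RPL11, which with RPL5 can bind and block MDM2, was at 8.65, 9.32 and 9.81 in the control group and at 9.25, 9.65 and 10.90 in the Oxy186 group. Tumor r3 stood at the top. The value of RPL5 itself was 0.046 (adjusted p = 0.954 in edgeR). RPS19 (-0.40), mutated in Diamond-Blackfan anemia, and RPL9 (-0.30) followed among those below 0, with an adjusted p of 0.862 in edgeR. RPS29 (8.05, 9.04 and 9.51) and RPLP1 (9.65, 11.04 and 11.31) spread wider than the control group on at least 1 side and overlapped it.

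**Figure D5:**
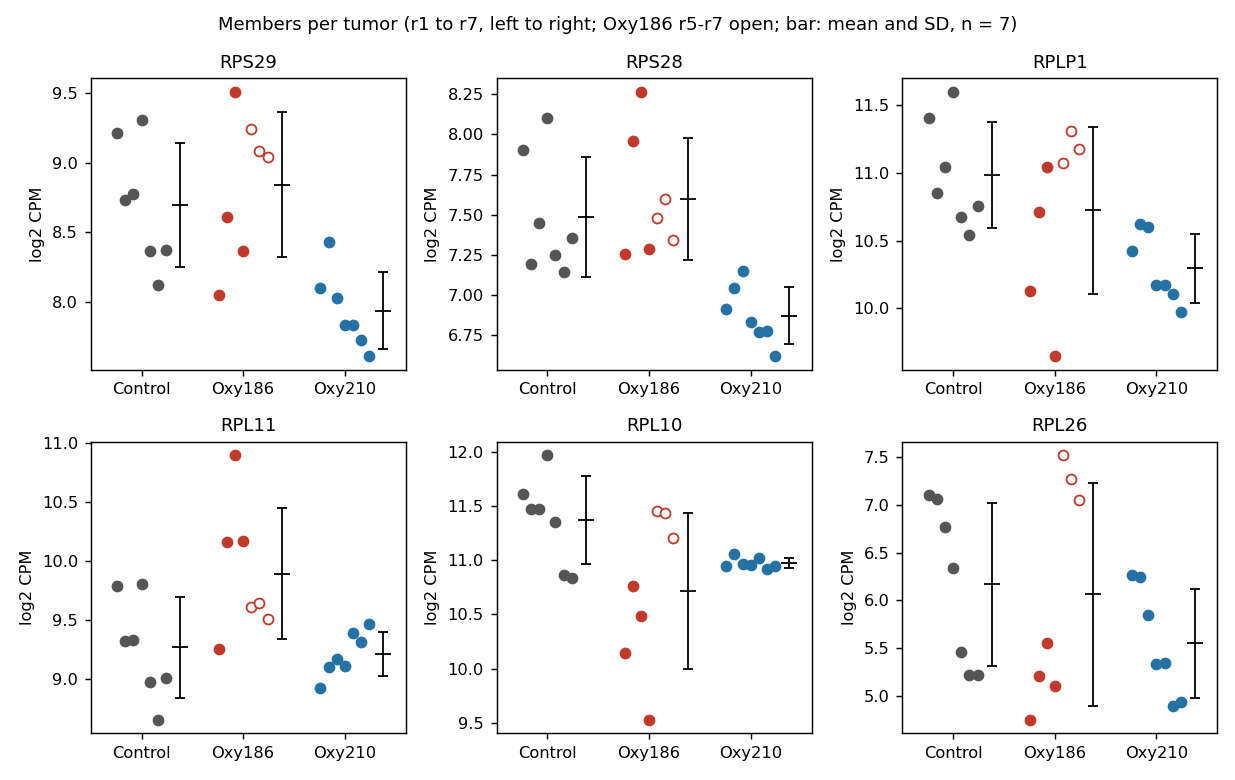
Log2 CPM of RPS29, RPS28, RPLP1, RPL11, RPL10 and RPL26 in each tumor, r1 to r7 from left to right within a group; open points are Oxy186-treated tumors r5-r7, and bars give the mean and SD (n = 7). RPS29, RPS28 and RPLP1 are low in Oxy210-treated tumors, RPL10 is low in Oxy186-treated tumors r1-r4, and for RPL26 control tumors r5-r7 lie at the level of Oxy186-treated tumors r1-r4.

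The study itself compared Oxy186-treated tumors r1-r4 with the control group, after a plot of the expression of all tumors, so the p-values of this comparison do not allow for that choice. Here single members moved in both directions, with no clear shift of the family as a whole. Of 83 members, edgeR called 4 higher and 5 lower (10.8%), beside 4.73% and 15% of all 16852 genes (19.7% in either direction). DESeq2 called 16 (19.3%), beside 26% of all genes. Above 0 were 45 members and below 0 were 38, beside 50.5% and 49.5% of all genes, and the median log2 fold change was 0.027 for members and 0.006 for all genes. Without 1 tumor the median of the members ran from -0.224 to 0.181, so a shift in either direction is not excluded. At an unadjusted p under 0.05, 11 members were higher and 10 lower, beside 13% and 21.7% of all genes (34.7% in either direction). The share of counts in r1-r4 was 6.69%, 9.47%, 11.1% and 6.63%, which covers the range of the study except for control tumor r6. The part of the GC slopes given above was tested only through the GC offsets below.

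RPL10 (chromosome X, 154389955 to 154409168) fell most clearly. It was at 10.15, 10.77, 10.49 and 9.53 in r1 to r4, all below the lowest control tumor at 10.83 (log2 fold change -1.12, standard error 0.25, adjusted p = 0.00717 in edgeR). It remained called in each of the 11 fits without 1 tumor, and lost its call with the replicate block and GC offsets together (-1.16, adjusted p = 0.105). In Oxy186-treated tumors r5-r7 it lay within the control range, as the plot by tumor shows. RPL10 is thereby 1 of 3 members without overlap, with RPS19, which was lower but not called (-0.72, adjusted p = 0.0581), and RPL7L1, beside 11.6% of all genes.

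The members that were higher were RPL11, RPS4X, RPS20 and RPL7L1. RPL11 was at 9.25, 10.16, 10.90 and 10.17 in r1 to r4 (log2 fold change 0.91, standard error 0.26, adjusted p = 0.0257). Tumor r1 lay inside the control range and the other three above it. RPS4X, the X-linked form of a small subunit protein, was at 10.71, 11.42, 11.79 and 11.21, against 10.39, 10.62 and 11.18 in the control group (0.66, adjusted p = 0.0295). RPS20, a protein of the small subunit head, was at 10.27, 10.99, 11.70 and 10.81 (0.76, adjusted p = 0.0337). The control group was at 9.93, 10.16 and 10.82 for RPS20, so tumors r1 and r4 lay inside its range. RPL7L1 was at 6.72, 6.91, 7.05 and 6.80, above the highest control tumor at 6.67 (0.33, adjusted p = 0.0403). Without tumor r3, none of these 4 was called, and the log2 fold changes were 0.60 for RPL11, 0.474 for RPS4X, 0.445 for RPS20 and 0.273 for RPL7L1. Without tumor r2, RPL11 alone of the 4 was called, and without r4 all but RPL7L1 were. Of the 11 fits without 1 tumor, control tumors included, the call was lost in 1 for RPL11, 4 for RPS4X, 5 for RPS20 and 8 for RPL7L1.

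RPL26, RPL8 and RPL17 were also lower, with calls that rested on single tumors: of the 11 fits without 1 tumor, the call was lost in 7 for RPL26, 6 for RPL8 and 9 for RPL17. RPL26 (chromosome 17, 8377516 to 8383213) was at 4.75, 5.21, 5.56 and 5.11 in r1 to r4 (log2 fold change -1.19, standard error 0.37, adjusted p = 0.0335). Control tumors r5, r6 and r7 were at 5.46, 5.22 and 5.21, within the values of r1-r4, and only control tumors r1 to r4 stood above, at 6.34 to 7.10. RPL8, a large subunit protein close to the peptidyl transferase center, was at 9.43, 10.07, 10.22 and 9.09 (-0.84, adjusted p = 0.0424). Control tumors r5, r6 and r7 were at 10.20, 9.93 and 10.01, among the values of r1-r4. The fold change of RPL8 turned to 0.019 with GC offsets. RPL17, at the tunnel exit, was at 2.87, 2.7, 3.04 and 2.26 (-0.55, adjusted p = 0.0425).

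The number of members called rested on single control tumors too: it was 4 without control tumor r1, 3 without r2 and 2 without r3. It was 5 without Oxy186-treated tumor r2, r3 or r4. The share of all genes called in these fits is not given here. With GC offsets 7 members were called (8.43%), beside 5.34% of all genes, so that the share of members lay above that of all genes with the offsets and below it without them. The called members were 4 lower and 3 higher, among them RPL10, RPL26 and RPL17, which were also called without them, and RPL35, RPL36 and RPL10A were higher. GC offsets moved the median of all genes by over 0.1, to -0.12, and that of the members to -0.086.

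Of the 6 paralogs tested, edgeR called RPL7L1 alone, in the comparison of Oxy186 r1-r4, and 0 with GC offsets, while DESeq2 also called RPL36AL in Oxy186 against Oxy210. In Oxy186 r1-r4, RPL36AL (0.63, adjusted p = 0.109) and RPL22L1 (0.59, adjusted p = 0.102) had values above 0 in edgeR but were not called, with adjusted p-values over the alternatives from 0.0316 to 0.765 and from 0.0282 to 0.948, beside 0.34 for RPL36A and 0.0022 for RPL22. RPL26L1 had a value of 0.21 where RPL26 fell. RPS27L had 0.24 and RPS27 0.13. RPL39L had -0.079 and RPL39 -0.50. The stalk genes had -0.44 for RPLP0, -0.55 for RPLP1 and -0.13 for RPLP2, and none was called.

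Genes that work with the family were read from lists of 23 other TOP messages, 52 ribosome biogenesis genes and 18 regulators of TOP messages and of MYC and mTOR signaling. In Oxy210-treated against control tumors 0 genes of these lists were called. Of the 22 other TOP messages tested, 5 were lower at an unadjusted p under 0.05 (22.7%, beside 8.12% of all genes). They were led by FAU (-0.46, adjusted p = 0.262) and NOP53 (-0.49, adjusted p = 0.29). FAU encodes a small subunit protein fused to a ubiquitin-like one, and only its symbol keeps it out of the members. Of the 52 biogenesis genes 3 were lower (5.77%) and 2 higher (3.85%), shares below those of all genes (8.12% and 5.72%), with a median of -0.011. The smallest p-values were those of RRP12 (-0.36, adjusted p = 0.291) and PES1 (-0.28, adjusted p = 0.33). The regulators were led by MAX, the partner of MYC (-0.36, adjusted p = 0.267), and EIF4EBP1, a target of mTOR (-0.42, adjusted p = 0.331).

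In Oxy186-treated against Oxy210-treated tumors 0 genes of the lists were called. The smallest p-values were those of FAU (0.67, adjusted p = 0.853), EEF1B2 (0.43, adjusted p = 1) and EBNA1BP2 (0.33, adjusted p = 1), all in edgeR. In all Oxy186-treated tumors against control, HNRNPA1 (0.28), LTV1 (0.35) and MAX (-0.35) had an unadjusted p under 0.05 but an adjusted p of 0.862 in edgeR, and 0 genes were called.

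In Oxy186 r1-r4 against control, both called genes among the other TOP messages were lower, EEF1D, a subunit of the elongation factor complex (-1.51, adjusted p = 0.000474), and NOP53 (-0.72, adjusted p = 0.0341). Those were 9.09% of the list, beside 19.7% of all genes. Of the biogenesis genes, 6 were lower and 4 higher (19.2%), a share near that of all genes. The lower ones were TAF1C (-1.35) and BRF1 (-1.05), which serve RNA polymerases I and III, BOP1 (-1.23) and its partner PES1 (-0.64), NOC4L (-0.78) and NOC2L (-0.59). The higher ones were BRIX1 (0.58), LTV1 (0.56), RPF2 (0.45) and GNL3 (0.40). Of the regulators, RPS6KB2 (-0.86), MLST8 (-0.80), TSC2 (-0.76), RPTOR (-0.69) and MAX (-0.53) were lower, and DEPTOR (0.79) and RPS6KB1 (0.36) were higher (38.9% of the list). With GC offsets, 1, 2 and 1 genes of these lists were called, all lower.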

How the data were processed

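RNA of 21 xenograft tumors was sequenced. The authors trimmed reads (Trimmomatic 0.39), aligned them with STAR 2.7.6a to human GRCh38 and mouse genomes together and deposited raw counts of uniquely aligned reads per human gene (featureCounts of Subread 2.0.1); strand use is not given in the sources used here. They also deposited log2 CPM values for control and Oxy186-treated tumors r1-r4, which recomputation from the counts matched within 4.97e-14.

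All samples were grouped by their labels. Counts were tested with edgeR 4.0.16 in R 4.3.3 (quasi-likelihood, filterByExpr, TMM with full library sizes, Benjamini-Hochberg over all genes tested), in the libraries compared, and genes were called at an adjusted p at or under 0.05. Log2 CPM used a prior count of 2. Lengths, positions and GC came from GENCODE 44 on GRCh38, with GC for 99.8% of tested genes, and promoter letters from RefSeq. Alternatives were limma voom 3.58.1, DESeq2 1.42.0, other normalizations, filters and lengths, GC offsets (splines of 4 degrees of freedom), a replicate block and leaving out tumors; those leaving out tumors other than Oxy186 r1-r4 were added after seeing the data. The fit was first tested on simulated counts.

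Named genes were the paralogs and their counterparts, the genes used as references, members with known extra roles, the 5 highest and 5 lowest per length, the 3 largest and smallest SDs, and in each comparison the 3 smallest p-values in each direction and every called member (where at most 10), with the called genes and the 2 smallest p-values of each other list. Others named in the text, among them RPS23, RPS21, RPL38 and RPL35, and the tumors singled out were chosen after their values were seen. The members and lists were chosen with earlier results of these data known. Results of some genes are not reported here, so a count can exceed the genes named with it.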

Additional observations from a re-analysis of the deposited data

Results flagged for a closer look

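In groups of 7 tumors, single tumors far from the rest were looked for by Dixon's ratio in the share of counts and in the named members, 117 groups in all. Chance flags about 5% of groups, or 5.85 of them, and 2 were found. RPS10, a low-count member, was at a log2 CPM of 0.733 in control tumor r3, away from the other control tumors. RPS20 was at 9.52 in Oxy210-treated tumor r1, below the other Oxy210-treated tumors.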

How the results depend on the processing

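The median log2 fold change of the members moved by less than the spread between tumors in every alternative run, from -0.302 to -0.213 without leaving out tumors for Oxy210 against control, 0.279 to 0.37 for Oxy186 against Oxy210, -0.00887 to 0.0683 for Oxy186 against control and -0.293 to 0.0542 for Oxy186 r1-r4 against control; without 1 tumor these were -0.364 to -0.19, 0.258 to 0.411, -0.0609 to 0.142 and -0.224 to 0.181. Lower members at an unadjusted p under 0.05 numbered 25 to 50 for Oxy210 against control, and higher members 27 to 53 for Oxy186 against Oxy210. Members called against Oxy210 were 7 with DESeq2, and those for Oxy210 against control 6 with DESeq2 and 1 without a filter. In Oxy186 r1-r4 against control, 9 members became 16 with DESeq2 (19.3%, beside 26% of all genes). They became 15 with library size alone, 19 with all 21 libraries in one fit and 2 with a fold change over 2 as well. Without 1 tumor they were 2 to 11. The share of all genes called is not given for settings other than DESeq2 here, so these counts are no result about the members alone. With the replicate number as a block 5 were called, and 2 in the replicate block with GC offsets, all lower, and 0 in the comparisons of 7 with 7, as without it. The labels give the numbers without saying what they share, and same-numbered tumors correlated above 0.1 in 0 of 7, 3 of 7 and 1 of 7 pairs, so they were not taken as pairs. RPL8 turned to 0.0189 with GC offsets, and RPL10 in Oxy186 against Oxy210 to 0.0103 without Oxy186-treated tumor r4 (-0.251 to 0.0103 without 1 tumor). Without mitochondrially encoded genes the mean share of counts rose in every group, to 9.34% in control, 9.48% in Oxy186 and 7.95% in Oxy210. The median log2 level per kilobase fell from 9.99 to 7.963 with union exon length, which is longer. The causes of the other changes were not tested. Depth limits the low-count members RPS10, RPL17 and RPL36A most.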

Other observations

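MRPL12, a protein of the mitochondrial ribosome, divided the tumors across the labelled groups, and 3 cytosolic members followed it. It was chosen after its values were seen. Its log2 CPM had its widest gap between 11 tumors, from -0.15 to 2.76, and 10 tumors, from 3.72 to 5.14. The 11 were control r5-r7, Oxy186 r1-r4 and Oxy210 r4-r7. The same 11 tumors were the lowest in RPL26, RPL23A and RPL8, which is 3.61% of the 83 members, beside 1.35% of 16990 genes with these tumors all lowest or all highest. RPL26 ran from 4.75 to 5.56 in them and from 5.85 to 7.52 in the others, and RPL23A from 7.5 to 8.57 and from 9.05 to 9.38. No label names what these tumors share, and no test was made.

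Of 76 mitochondrial ribosomal protein genes tested, 15 were higher and 0 lower at an unadjusted p under 0.05 in Oxy186-treated against Oxy210-treated tumors (median log2 difference 0.195), beside 3.14% and 0.917% of all genes. In Oxy210 against control 11 were lower and 1 higher (median -0.069), beside 8.12% and 5.72% of all genes. The shares of the list were 19.7% higher in the former and 14.5% lower in the latter. edgeR called 0 in either.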
